A study of Mus musculus with 8 samples.

Results

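A set of 10 genes of the cytotoxic granule was followed in 8 RNA sequencing libraries of mouse CD4+ T cells. They were taken by symbol, and all 10 were found among the 53657 genes that both kinds of file share. They comprise the granzyme genes Gzma, Gzmb, Gzmc and Gzmk, the pore gene Prf1, the granule genes Nkg7 and Ctsw, the inhibitor genes Serpinb9 and Serpinb6b, and Plac8. Colon cells, all labelled as colitis, came from recipients lacking T cells of their own (Tcrbd-/-), 6 weeks after these received naive CD4+ T cells. The donors were control (Rora_fl/fl, 2 libraries) or knockout (Cd4_cre Rora_fl/fl, 2 libraries) mice. Such recipients keep other lymphocytes and myeloid cells, and the Cre is driven by Cd4. Th17 cultures were started from naive CD4+ T cells of the same genotypes on plates coated with antibodies to CD3 and CD28. They ran for 4 days in either of 2 cytokine mixes, TGF-β plus IL-6 (the TGF-β mix) or IL-6 plus IL-1β plus IL-23 (the IL-23 mix), with 1 library for each genotype and mix. PMA and ionomycin were given to all groups for 2 hours before RNA extraction, so no group shows resting levels. The labels used here state neither mouse ages nor pooling.

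Cytotoxic lymphocytes kill by releasing granules that hold perforin, which opens pores in the target membrane, and granzymes, which are serine proteases that enter through them. Inhibitors of the serpin family protect the killer cell from its own granzymes. Helper T cells carry this programme less often than CD8 T cells or NK cells do, although CD4+ T cells in the gut can acquire it. Rora codes for RORα, a nuclear receptor with a part in Th17 differentiation.

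The libraries held 13176752 to 15922696 counts. Rora was lower in each knockout library, at 133 and 149 CPM (counts relative to the TMM-scaled size of the library) against 252 and 290 CPM in colon controls. In culture it measured 189 against 499 CPM in the TGF-β mix and 59.0 against 152 CPM in the IL-23 mix. Cd4 was present in all libraries, from 821 to 1030 CPM in colon and from 455 to 720 CPM in culture. Markers of other cells differed between the colon groups. Epithelial markers (11 genes) summed to 49.6 and 46.5 CPM in control and 132 and 132 CPM in knockout libraries. The 9 B and plasma cell markers summed to 1286 and 1374 in control and 2514 and 2732 CPM in knockout libraries, with 5 higher, 1 lower and 1 of 7 tested not passed. Igha led them (385 and 379 against 1414 and 1505 CPM). Without Igha and Igkc the sum was 735 and 835 against 598 and 654 CPM. Most of that remainder was Xbp1, the 1 called lower (691 and 792 against 432 and 469 CPM), while Jchain rose from 25.4 and 24.8 to 137 and 153 CPM. The 6 fibroblast markers summed to 27.2 and 21.7 against 91.9 and 84.9 CPM, and the 9 macrophage markers to 54.0 and 50.6 against 74.2 and 73.0 CPM. The 6 of plasmacytoid dendritic cells summed to 70.6 and 70.2 against 83.4 and 77.8 CPM, and of 3 tested 2 rose and 1 fell. Bst2 fell (48.1 and 49.6 to 42.1 and 38.2 CPM) and Ccr9 rose (19.1 and 18.1 to 35.3 and 34.5 CPM). Siglech had at most 1 count in any colon library. The 8 neutrophil markers stayed at or below 2.13 CPM in sum. The 12 markers of conventional T cells summed to 10774 and 10464 against 8561 and 8271 CPM. The part of these cells in the results for colon was not tested. The median log2 fold change of all tested genes was 0.01 with TMM, 0.21 with library totals and 0.35 when libraries were scaled to the summed T cell markers. Of the genes called in colon, 2566 were higher and 2607 lower with TMM, 4284 and 1262 with library totals, and 5795 and 681 with T cell marker scaling.

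Promoter sequence is shown for 5 of the genes: the neighbours Gzma and Gzmk, which moved in opposite directions in knockout colon cells, and Gzmb, Prf1 and Nkg7, which rose together with the cytokine mix that holds IL-23. Each is the stretch of 250 bases before the RefSeq start site, on the strand of the gene and in build GRCm38.p6. Capitals mark matches on either strand to 5 short motifs, namely AGGTCA (half-site of ROR receptors), GGTGTGA (T-box core), TGTGGT (RUNX core), TGANTCA (AP-1) and GGAAAA (NFAT core). These lie at chr13:113100982-113101231 (Gzma, minus strand), chr13:113180966-113181215 (Gzmk, minus), chr14:56262335-56262584 (Gzmb, minus), chr10:61297586-61297835 (Prf1, plus) and chr7:43436888-43437137 (Nkg7, plus).
Gzma: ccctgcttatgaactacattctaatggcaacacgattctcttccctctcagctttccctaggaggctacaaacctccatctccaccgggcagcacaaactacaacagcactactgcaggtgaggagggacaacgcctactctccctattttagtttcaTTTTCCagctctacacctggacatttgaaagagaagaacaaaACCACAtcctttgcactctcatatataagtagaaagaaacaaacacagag
Gzmk: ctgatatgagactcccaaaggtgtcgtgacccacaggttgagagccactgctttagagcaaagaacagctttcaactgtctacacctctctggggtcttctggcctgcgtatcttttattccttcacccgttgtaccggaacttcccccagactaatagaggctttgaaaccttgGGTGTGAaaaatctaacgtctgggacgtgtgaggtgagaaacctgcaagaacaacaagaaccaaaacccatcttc
Gzmb: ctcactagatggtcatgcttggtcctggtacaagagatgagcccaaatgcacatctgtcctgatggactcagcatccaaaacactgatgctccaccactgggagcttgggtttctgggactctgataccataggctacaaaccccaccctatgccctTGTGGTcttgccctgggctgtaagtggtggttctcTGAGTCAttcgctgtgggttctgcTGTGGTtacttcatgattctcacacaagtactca
Prf1: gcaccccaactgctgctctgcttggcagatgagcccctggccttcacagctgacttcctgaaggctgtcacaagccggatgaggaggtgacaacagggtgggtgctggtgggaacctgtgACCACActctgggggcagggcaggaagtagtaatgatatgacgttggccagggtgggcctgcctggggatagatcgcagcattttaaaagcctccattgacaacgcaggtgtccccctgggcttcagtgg
Nkg7: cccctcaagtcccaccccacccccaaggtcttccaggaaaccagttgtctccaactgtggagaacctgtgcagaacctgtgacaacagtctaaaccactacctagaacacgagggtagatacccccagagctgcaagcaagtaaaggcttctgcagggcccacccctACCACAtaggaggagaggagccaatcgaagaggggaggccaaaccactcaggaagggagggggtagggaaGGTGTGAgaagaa
RefSeq windows, from 250 bases before to 50 after the start, were found for 9 of the 10 genes, with 2 for Plac8, and not for Ctsw. The RUNX core was present in 7 of the 10 windows and in 16.8% of all 32851 windows of that length. It lies 93 and 34 bases before the start of Gzmb, and 130 before that of Prf1, where it reads on the other strand. The T-box core was present in 3 windows (Gzmk, Nkg7 and Plac8) and in 3.98% of all windows. The AP-1 letters were found in the Gzmb window alone among the 10, 58 bases before the start, and in 7.81% of all windows. The ROR half-site was found in the Gzmc window alone, 115 bases before the start, and in 16.3% of all windows. The NFAT core was present in 4 windows and in 23.4% of all. Such matches are descriptions of letters and not of binding.

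Compared per kilobase of merged exons and on 1 scale for all 8 libraries, the genes ranked differently in the 2 colon groups. In the control colon libraries Nkg7, a granule membrane protein gene, was highest, at 350 and 375 CPM per kb. Gzmb, for the protease that cuts after aspartate, followed at 312 and 302, Ctsw (cathepsin W) at 238 and 216, and Gzma, for a trypsin-like granzyme, at 175 and 165. Prf1 stood at 24.7 and 23.7 and Gzmc at 19.4 and 15.9 CPM per kb, the lowest of the set. In the knockout colon libraries Gzma was first, at 633 and 709 CPM per kb, ahead of Gzmb at 406 and 394. For each of the 10 genes the lowest colon library lay above the highest cultured library. This is a description, since the colon and culture files were counted against different annotations. How many of all genes separate in the same way was not counted, so it is not read as a trait of this set.

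**Figure D1:**
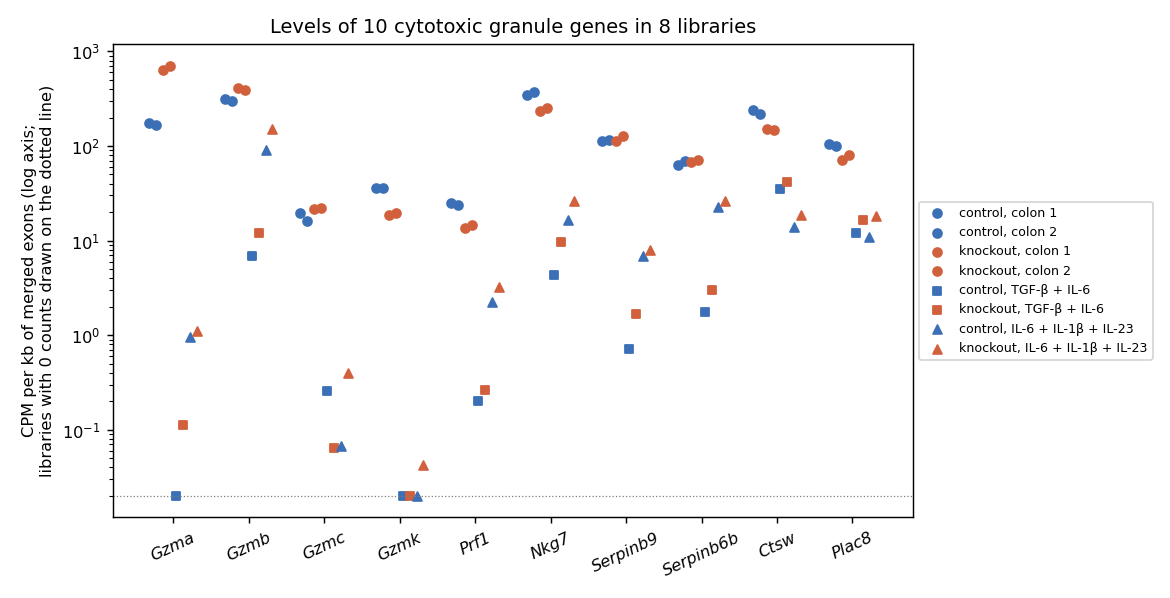
Level of each gene in each library, in CPM per kb of merged exons on a logarithmic axis, with colour for genotype and shape for the source of the cells. Colon libraries (circles) lie above all cultured libraries for each gene, a gap not compared with that of all genes. Gzma is the one gene where knockout colon cells, at 633 and 709, stand far above control, at 175 and 165.

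Knockout colon CD4+ T cells held 3.96-fold more Gzma RNA and somewhat more Gzmb RNA than control cells, with less RNA for Prf1, Gzmk, Nkg7, Ctsw and Plac8. In edgeR's quasi-likelihood fit, with p-values adjusted by the Benjamini-Hochberg method over 13101 genes, 2 of the 10 genes rose, 5 fell and 3 did not pass. Over all genes, 39.5% passed at an adjusted p of 0.05 (19.6% higher and 19.9% lower), so 7 of 10 is read against that share. With library totals and with T cell marker scaling, 5 of the 10 rose, 4 fell and 1 did not pass. Of all 13101 genes, 4284 were higher and 1262 lower with library totals, and 5795 higher and 681 lower with T cell marker scaling. The median log2 fold change of the 10 genes was -0.17 with TMM, 0.02 with library totals and 0.17 with T cell marker scaling. The groups did not overlap for 8 of the 10 genes, beside 70.5% of all genes (36.1% with knockout higher and 34.4% lower). In these bulk samples, fewer cells of a type and less RNA per cell cannot be told apart. Nothing in the labels says that libraries of a group come from separate mice, so the spread that p-values measure here may be technical only.

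Gzma measured 160 and 150 CPM in control and 581 and 650 CPM in knockout colon libraries, from 1974, 2107, 8533 and 10072 counts. Both knockout libraries were above both controls. The log2 fold change was 1.99 ± 0.09 (SE; edgeR adjusted p = 6.0e-08), which corresponds to 3.96-fold between group means of 155 ± 7.02 and 616 ± 49.1 CPM (SD, n = 2). Gzmb measured 408 and 394 CPM in control and 532 and 515 CPM in knockout libraries. The groups did not overlap, and the change was smaller, at 0.39 ± 0.08 (edgeR adjusted p = 0.0020). Gzma and Gzmb passed in the same direction under all 10 alternative settings. Gzmc, a gene of the Gzmb cluster, had 15.8 and 12.9 CPM in control and 17.8 and 18.2 CPM in knockout libraries. Its log2 fold change of 0.33 ± 0.14 did not pass (edgeR adjusted p = 0.071). It passed with library totals (0.52, edgeR adjusted p = 0.0096), with T cell marker scaling (0.67, 0.0024) and without the first control library (0.47, 0.036).

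Gzmk, for a granzyme with trypsin-like cleavage like that of granzyme A, went the other way. It measured 45.3 and 44.9 CPM in control and 23.4 and 24.8 CPM in knockout libraries, which put both knockout libraries near 53.5% of the control mean. The log2 fold change was -0.90 ± 0.10 (edgeR adjusted p = 4.4e-05). Gzma and Gzmk are neighbours on the minus strand of chromosome 13 (mm10, 113093825 to 113100981 and 113171608 to 113225908), with a gap of 70.6 kb that holds 0 protein-coding genes. Gzmc (56231441 to 56234656) and Gzmb (56258838 to 56262260) are neighbours on chromosome 14, 24.2 kb apart. Of the distinct 50-base stretches of these 4 genes' transcripts, those of Gzma, Gzmb and Gzmk occur in transcripts of no other gene, and 4.14% of those of Gzmc do, so counts of Gzmc are less certain. RefSeq starts Gzmk further downstream than GENCODE does, which is why its promoter stretch lies inside the GENCODE span.

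Prf1 (chromosome 10, 61297833 to 61304680, plus strand), which encodes perforin, measured 58.1 and 55.5 CPM in control and 32.2 and 34.3 CPM in knockout colon libraries. Both knockout libraries were lower, with a log2 fold change of -0.77 ± 0.09 (edgeR adjusted p = 9.2e-05). Nkg7 (chromosome 7, 43437073 to 43438249, plus strand) measured 291 and 311 against 193 and 212 CPM (-0.57 ± 0.08, edgeR adjusted p = 2.9e-04). Ctsw (chromosome 19, 5465043 to 5468507, minus strand), for a cysteine protease of cytotoxic lymphocytes, measured 409 and 370 against 258 and 252 CPM (-0.61 ± 0.08, edgeR adjusted p = 1.7e-04). Exons of Ctsw share 9 bases with those of Fibp on the opposite strand, and whether counting used strand is not stated. Prf1, Nkg7, Ctsw and Gzmk stayed lower and past the threshold under each of the 10 alternatives. Plac8 (chromosome 5, 100553725 to 100572245, minus strand), for a small cysteine-rich protein found in lymphocytes and myeloid cells, measured 151 and 144 against 104 and 116 CPM. Its change of -0.42 ± 0.08 passed (edgeR adjusted p = 0.0026), but not with library totals (-0.22, 0.054) or T cell marker scaling (-0.08, 0.49).

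The genes for granzyme inhibitors did not pass. Serpinb9, which encodes the inhibitor of granzyme B, measured 358 and 368 CPM in control and 362 and 404 CPM in knockout libraries. The groups overlapped, and the log2 fold change was 0.08 ± 0.08 (edgeR adjusted p = 0.49). Serpinb6b, for an inhibitor of mouse granzyme A, measured 128 and 143 against 139 and 148 CPM, with overlap and a change of 0.08 ± 0.08 (edgeR adjusted p = 0.46). Both were called higher with library totals (0.27 and 0.28, edgeR adjusted p = 0.021 and 0.022) and with T cell marker scaling (0.41 and 0.42, 0.0031 and 0.0037). The pair are neighbours on the plus strand of chromosome 13, Serpinb6b at 32965209 to 32979067 and Serpinb9 at 33003250 to 33017957. Of their distinct 50-base stretches, 2.92% and 0.378% occur in transcripts of other genes, mostly Serpinb6c and Serpinb9b.

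**Figure D2:**
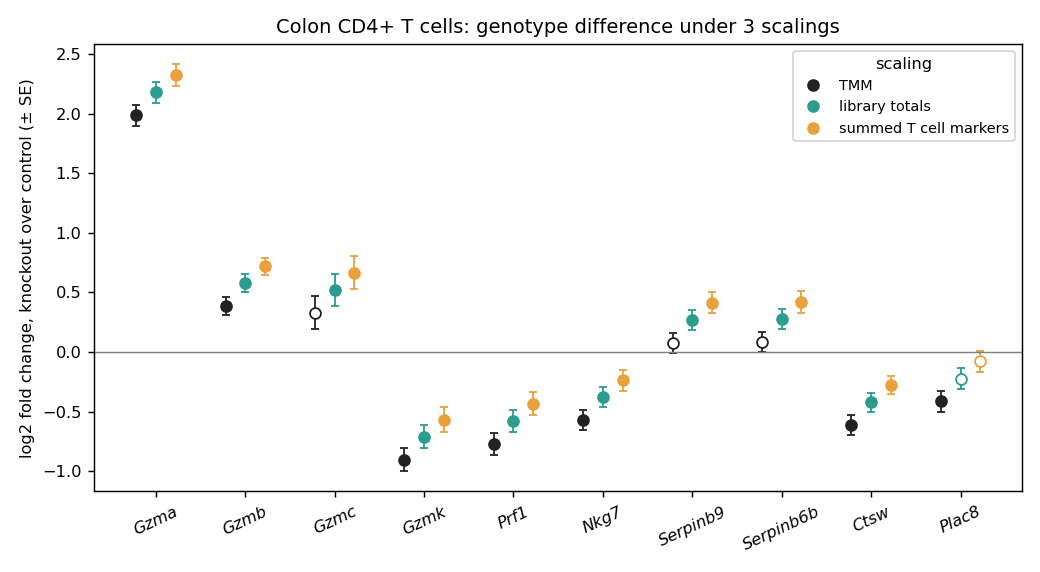
Log2 fold change of knockout over control colon libraries for each gene under 3 scalings, with bars for the standard error; filled points passed an adjusted p of 0.05 in edgeR. Gzma and Gzmb lie above 0 and Gzmk, Prf1, Nkg7 and Ctsw below 0 in all 3, while calls for Gzmc, Serpinb9, Serpinb6b and Plac8 change with the scaling.

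Ratios between genes of 1 library do not depend on the scaling; these pairs were chosen after their values were seen. Per exon base, Gzma counts were 0.561 and 0.545 of Gzmb counts in control colon libraries and 1.56 and 1.80 in knockout libraries. In the controls Gzmb thus led Gzma, and in the knockout libraries Gzma led. Prf1 counts were 0.0791 and 0.0782 of Gzmb counts in control and 0.0336 and 0.0370 in knockout colon libraries, and 0.0211 to 0.0292 in the 4 cultured libraries. Less Prf1 per Gzmb RNA was thus found in knockout colon cells than in control colon cells, and still less in the cultured cells.

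**Figure D3:**
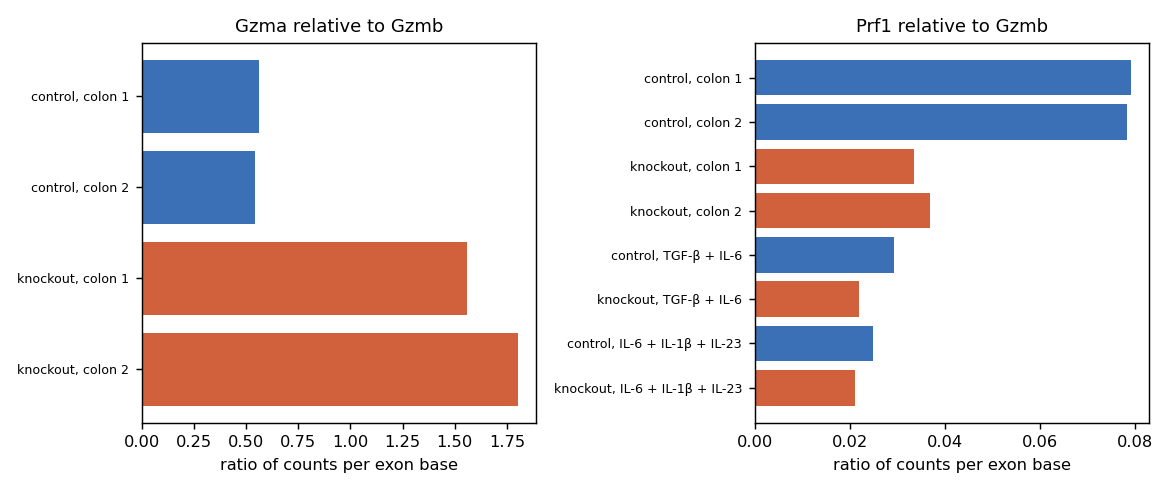
Ratio of counts per exon base of Gzma to Gzmb in the 4 colon libraries (left) and of Prf1 to Gzmb in all 8 libraries (right), 1 bar per library on linear axes from 0. The Gzma ratio goes from 0.561 and 0.545 in control to 1.56 and 1.80 in knockout colon, and the Prf1 ratio from 0.0791 and 0.0782 to 0.0336 and 0.0370.

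Markers of other cytotoxic cells were measured beside these genes in colon. Of 10 markers of NK cells and innate lymphoid cells, 7 were tested, 2 rose, 1 fell and 4 did not pass. All 10 summed to 34.2 and 37.3 CPM in control and 31.0 and 34.0 CPM in knockout libraries. Eomes, the most abundant, which T cells also express, fell, and without it they came to 11.2 and 12.1 CPM in control and 16.8 and 19.2 CPM in knockout libraries. Ncr1 went from 2 and 3 counts in control to 15 and 14 in knockout libraries, and Klra4 and Klra8 had at most 1 count in any. The CD8 markers Cd8a and Cd8b1 summed to 21.6 and 19.6 CPM in control libraries and 3.06 and 3.81 CPM in knockout libraries. Cd8a fell (248 and 245 against 30 and 32 counts), and Cd8b1 did not pass (18 and 29 against 15 and 27 counts, edgeR adjusted p = 0.47). Of 5 measured markers of γδ T cells, 2 rose, 1 fell, 1 did not pass and 1 was below the filter, and the 5 summed to 19.6 and 17.8 CPM in control and 21.04 and 21.6 CPM in knockout libraries. Trdc rose from 0.974 and 1.78 to 4.49 and 4.97 CPM, and Tcrg-C1 fell from 7.47 and 5.21 to 2.45 and 2.32 CPM. Tcrg-C2, the most abundant, did not pass (9.74 and 9.99 against 9.74 and 10.7 CPM). Of 10 mast cell markers 3 were tested, of which 2 rose and 1 fell, and all 10 summed to 199 and 199 CPM in control and 122 and 108 CPM in knockout libraries. Nearly all of this was Kit, which is not particular to mast cells and fell from 199 and 199 to 115 and 101 CPM. Without Kit, the sum was 0.244 and 0.214 CPM in control and 7.22 and 7.49 CPM in knockout libraries, led by Mcpt1 (59 and 62 counts), while Ms4a2 was at 0. The part of these cells in the changes of Gzma and Gzmb was not tested.

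Other genes of the programme, from lists written with earlier results in view, changed in both directions in knockout colon cells. Over all 13101 genes, 19.6% were higher and 19.9% lower with TMM, and 5795 were higher and 681 lower with T cell marker scaling. All list counts for colon are read against these. Among the other granzyme genes, Gzmm was tested and fell from 4.87 and 4.14 to 2.52 and 2.20 CPM (-0.93 ± 0.23, edgeR adjusted p = 0.0081). That call was lost in DESeq2 (adjusted p = 0.067) and with T cell marker scaling (edgeR adjusted p = 0.053). Gzmn had 0 counts in all 8 libraries, and Gzmd, Gzme, Gzmf and Gzmg were below the filter. Of 15 measured genes for granule cargo, maturation and release, 5 rose, 3 fell and 7 did not pass, with a median of 0.04 beside 0.01 for all genes. Ctsl, a lysosomal cathepsin gene, rose from 17.9 and 15.3 to 38.3 and 40.0 CPM (1.24 ± 0.11), and Sytl2, whose product binds Rab27a on granules, rose by 0.49 ± 0.09 on the log2 scale. Stx11 (-0.55 ± 0.08) and Vamp8 (-0.42 ± 0.08), which belong to the membrane fusion machinery, fell. Neither of the 2 passed with T cell marker scaling (edgeR adjusted p = 0.063 and 0.42), under which 10 of the 15 rose and 0 fell.

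Of 10 other serpin genes, 6 were tested, and in knockout colon cells 2 fell and the other 4 did not pass. The median of the 6 was -0.06 (0.13 with library totals and 0.27 with T cell marker scaling, where 3 rose and 2 fell). Serpinb1a, an inhibitor of neutrophil-type proteases, fell from 676 and 661 to 196 and 196 CPM (-1.77 ± 0.08, edgeR adjusted p = 5.7e-08). Serpina3g fell from 872 and 867 to 540 and 565 CPM (-0.65 ± 0.08). Of 14 transcription factor genes of the programme, 7 fell, 1 rose and 6 did not pass (median -0.26, which turned to 0.08 with T cell marker scaling, where 2 fell and 3 rose). Eomes, a T-box factor of CD8 T and NK cells, fell from 23.0 and 25.2 to 14.2 and 14.9 CPM (-0.73 ± 0.12), and Id2 fell by 0.78 on the log2 scale. Tcf7 (-0.53) and Bhlhe40 (-0.45) fell as well, and did not pass with T cell marker scaling (edgeR adjusted p = 0.054 and 0.21).

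Of 10 genes for death ligands and secreted effectors, 6 fell, 3 rose and 1 did not pass (median -0.44; with T cell marker scaling 4 fell and 4 rose). The chemokine gene Ccl5 went from 673 and 739 to 342 and 366 CPM and Ccl3 from 591 and 694 to 285 and 357 CPM. Ccl4 (-1.13 ± 0.08) and the lymphotoxin gene Lta (-0.81 ± 0.08) also fell. Among 14 genes for surface receptors of cytotoxic lymphocytes, 5 rose, 5 fell and 4 did not pass (median 0.03; 0.36 with T cell marker scaling, where 8 rose and 4 fell). Klrk1, which encodes the activating receptor NKG2D, rose from 16.1 and 15.5 to 43.2 and 43.8 CPM (1.46 ± 0.10). Klrc1, for the inhibitory receptor NKG2A (-1.02 ± 0.10), Il2rb, for the IL-2 receptor β chain (-1.05 ± 0.08), and Cd7 (-0.81 ± 0.09) fell.

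In cultured cells the cytokine mix with IL-23 gave higher RNA levels of Gzmb, Prf1, Serpinb6b, Serpinb9 and Nkg7 than the mix with TGF-β, in both genotypes, and a lower level of Ctsw. In the edgeR fit with terms for mix and genotype, which takes the 2 genotypes as repeats, 6 of the 10 genes rose, Ctsw fell, Plac8 did not pass, and Gzmc and Gzmk were below the filter on low counts. Over 13983 genes, 69.8% passed, 35.8% higher and 34.0% lower, so a pass by itself is common in this comparison. The fit has 1 residual degree of freedom.

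Gzmb stood at 10.8 CPM in control cells and 19.0 CPM in knockout cells of the TGF-β mix, and at 143 and 240 CPM in those of the IL-23 mix. Both libraries with IL-23 were above both with TGF-β, 13.2-fold in control (95% counting interval 11.3 to 15.5) and 12.6-fold in knockout cells (11.2 to 14.3). The fitted log2 difference was 3.69 ± 0.08 (edgeR adjusted p = 3.2e-08). Prf1 went from 9 and 12 counts (0.569 and 0.752 CPM) to 97 and 140 counts (6.39 and 9.11 CPM), a log2 difference of 3.53 ± 0.26. Even at its highest cultured level Prf1 thus stayed below the lowest colon library. Gzma had 0 and 2 counts with TGF-β and 16 and 19 counts with IL-23. In control cells this is at least 5.55-fold higher when the TGF-β library is set to a floor of 3 counts, while the 95% counting interval of 16 against 0 counts starts lower, at 4.01. In knockout cells the ratio was 9.87 (2.38 to 87.3).

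Serpinb6b went from 4.37 and 7.46 to 56.2 and 65.7 CPM (log2 difference 3.38 ± 0.14) and Serpinb9 from 2.72 and 6.39 to 26.2 and 30.3 CPM (2.65 ± 0.20). Both inhibitor genes were thus higher with IL-23 along with Gzmb and Prf1. Nkg7 went from 4.37 and 9.59 to 16.7 and 26.1 CPM (1.64 ± 0.15). Ctsw went the other way, from 72.6 and 85.4 to 29.1 and 38.4 CPM (-1.23 ± 0.08, edgeR adjusted p = 4.1e-06). Plac8 had 20.9 and 29.1 CPM with TGF-β and 19.3 and 31.7 CPM with IL-23, which overlap (0.02 ± 0.10, edgeR adjusted p = 0.90). The calls for these genes were kept in each of the 6 alternatives. Gzmc had at most 6 counts and Gzmk at most 1 in any cultured library, so no fold is given for them. A ratio of 2-fold or more, with 5 CPM in either library, was reached in control cells by 6 of the 7 genes with that level, 5 higher and 1 lower, beside 28.1% of all genes. In knockout cells it was again 6 of 7, 5 higher and 1 lower, beside 27.5%. Prf1, Nkg7, Serpinb9 and Serpinb6b in control cells, and Prf1 in knockout cells, reached 5 CPM only with IL-23. For these only a higher ratio could be counted, so the counts of higher genes are not read as a result about direction.

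**Figure D4:**
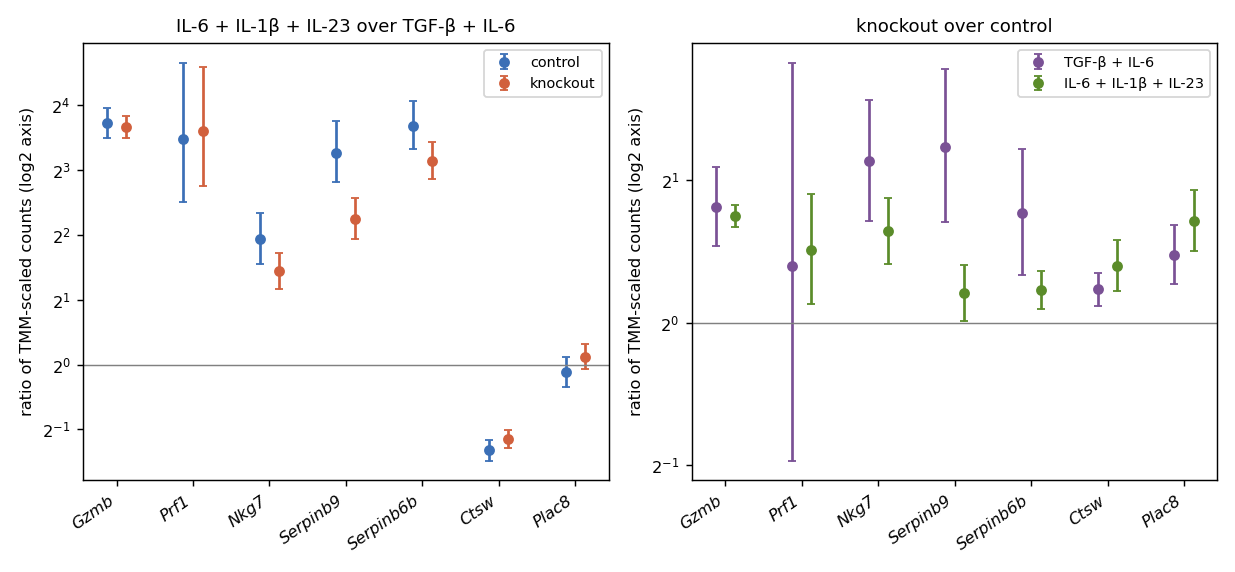
Ratios of TMM-scaled counts between single cultured libraries on a log2 axis, for the cytokine mixes (left, by genotype) and for knockout over control (right, by mix), with 95% intervals that cover counting error only. On the left Gzmb reaches 13.2 and 12.6, and Ctsw lies below 1. On the right all points lie above 1, with the interval of Prf1 in the TGF-β mix crossing 1.

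Markers of other cells also differed between the mixes. The neutrophil markers summed to 3.35 and 3.95 CPM with TGF-β and to 85.8 and 102 CPM with IL-23, nearly all from Ly6g and Cxcr2, while S100a8 and S100a9 were at 0. The fibroblast markers summed to 1.77 and 2.07 against 446 and 410 CPM, nearly all from Lum and Dcn, while Col3a1 was at 0. The macrophage markers summed to 2.28 and 2.57 against 34.96 and 33.3 CPM. Among them Cd68 went from 2.15 and 2.19 to 30.5 and 27.3 CPM and Mrc1 from 1 and 1 to 63 and 84 counts. Lyz2, C1qa, C1qb and C1qc were at 0. NK markers summed to 1.39 and 1.32 against 3.55 and 2.73 CPM, with Ncr1 and Klrb1c at 0 in all 4 libraries. Cd8a was also at 0, while Cd8b1 went from 51 and 66 to 152 and 117 counts. The part of these cells in the differences between mixes was not tested.

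Other genes of the programme also differed between the mixes. Over all genes 35.8% were higher and 34.0% lower with IL-23, and all list counts between mixes are read against these shares. Of 15 genes for granule cargo, maturation and release, 9 were higher with IL-23, 3 were lower and 3 did not pass (median 0.32 beside 0.02 for all genes; with T cell marker scaling 6 were higher). Lyst, for a regulator of lysosome-like granules, was higher (28.8 and 22.1 against 91.0 and 97.5 CPM, log2 difference 1.89 ± 0.12), as was Unc13d, for the priming factor Munc13-4 (1.05 ± 0.07). Rab27a, for a GTPase that docks granules, was lower (119 and 123 against 39.2 and 36.5 CPM, -1.68 ± 0.08), and so was Stx11 (-0.98 ± 0.07). Of 14 transcription factor genes, 12 were tested, of which 8 were higher and 2 lower (median 0.85). Runx3, a regulator of cytotoxic differentiation, went from 75.2 and 66.8 to 246 and 238 CPM (1.77 ± 0.07). Its known antagonist Zbtb7b was also higher (0.87 ± 0.07), as was Id2 (0.96 ± 0.07), and the repressor gene Bach2 was lower (-1.21 ± 0.07).

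Of 10 other serpin genes, 4 were tested. Serpinb6a was higher (1.71 ± 0.09), Serpinb1a (-1.45 ± 0.11) and Serpina3g (-1.69 ± 0.32) were lower, and 1 did not pass. Of 10 secreted effector and death ligand genes, 9 were tested, of which 6 were lower and 3 higher (median -1.74). Il2 (-5.26 ± 0.09), Xcl1 (-4.72 ± 0.34), Ccl4 (-2.76 ± 0.20) and Tnf (-1.40 ± 0.08) were among the lower ones, in the libraries where Gzmb was higher. Of 14 surface receptor genes, 9 were tested, of which 5 were higher and 3 lower (median 0.51). Cd226 (2.01 ± 0.09), Slamf7 (1.86 ± 0.07), Il18r1 (1.78 ± 0.12) and Il2rb (0.51 ± 0.07) were higher.

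Knockout cells in culture had a higher Gzmb level than control cells in both cytokine mixes. Gzmb had 171 counts in control and 303 in knockout cells with TGF-β, a ratio of 1.76 (95% counting interval 1.45 to 2.13). With IL-23 it had 2172 and 3688 counts, a ratio of 1.68 (1.59 to 1.77). Across both mixes the log2 fold change was 0.77 ± 0.08 (edgeR adjusted p = 0.033), and Gzmb was 1 of 4 genes of 13983 called for genotype in culture (0.0286%; 2 higher and 2 lower, 0.0143% each). That call was lost without a filter on low counts (edgeR adjusted p = 0.95), where 0 genes passed in edgeR, 472 had an unadjusted p under 0.05, and Rora itself did not pass (edgeR adjusted p = 0.094). The other 7 tested genes of the set had log2 fold changes of 0.31 to 0.81 and did not pass. Nkg7 (0.81 ± 0.15, edgeR adjusted p = 0.46) and Plac8 (0.60 ± 0.10, edgeR adjusted p = 0.43) passed with the spread shared over all 8 libraries (0.027 and 0.039) and with T cell marker scaling (1.1e-05 and 5.0e-05).

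Within the TGF-β mix Nkg7 had 69 and 153 counts in control and knockout cells, a ratio of 2.20 (1.64 to 2.96), and Serpinb9 43 and 102, a ratio of 2.35 (1.63 to 3.44). These 2 of the 6 genes with 5 CPM in either library passed 2-fold there, both higher, beside 0.240% of all genes (0.0939% higher and 0.146% lower). However, Nkg7 (4.37 CPM in control and 9.59 CPM in knockout cells) and Serpinb9 (2.72 and 6.39 CPM) reached 5 CPM only in the knockout library. Only a higher ratio could be counted for them, so the count of 2 is not read as a result about the set. In the mix with IL-23 the ratios were 1.56 (1.33 to 1.83) and 1.16 (1.01 to 1.32), and 0 of 7 genes passed 2-fold, beside 0.290% of all genes. Plac8 had ratios of 1.39 (1.21 to 1.61) and 1.64 (1.42 to 1.91), Serpinb6b of 1.71 (1.26 to 2.33) and 1.17 (1.07 to 1.28), and Ctsw of 1.18 (1.09 to 1.27) and 1.32 (1.16 to 1.497). Prf1 had ratios of 1.32 (0.511 to 3.55) and 1.43 (1.09 to 1.87). With Gzmb, these 7 genes thus had more counts in knockout than in control cells in both mixes. The interval included 1 only for Prf1 with TGF-β. Left out were Gzma, Gzmc and Gzmk, which had few counts, and Gzmc went the other way with TGF-β (4 counts in control and 1 in knockout cells). The share of all genes that were higher in both mixes was not counted, so the pattern is not read as particular to this set. Such 1 against 1 values have no replicate check.

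The difference between genotypes in colon was tested against that in culture in 1 fit of all 8 libraries. The culture effect in that fit comes from 1 library for each genotype and mix, with the mixes taken as repeats. There 6 of the 10 genes passed, 1 with a higher and 5 with a lower effect in colon, beside 17.3% of all 14886 genes (7.71% higher and 9.57% lower). Over all genes 1147 were called higher and 1425 lower with TMM, 2260 and 567 with library totals, and 3129 and 305 with T cell marker scaling. For Nkg7 the colon effect minus the culture effect was -1.38 ± 0.16 on the log2 scale (edgeR adjusted p = 1.2e-04), for Prf1 -1.27 ± 0.21 (0.0011), for Plac8 -1.02 ± 0.13 (2.8e-04) and for Ctsw -0.93 ± 0.12 (2.4e-04). These 4 were lower in knockout colon cells and had more counts in knockout cells of both cultures. Gzmb was higher in the knockout in both settings, with a difference of -0.39 ± 0.11 (edgeR adjusted p = 0.029). That call was lost with library totals (-0.20, edgeR adjusted p = 0.25), with T cell marker scaling (-0.08, 0.71), without the first control colon library (0.073) and without the second knockout colon library (0.081). For Gzma the difference was 1.61 ± 0.50 (edgeR adjusted p = 0.039), on at most 19 counts per cultured library. It was lost without the second control (0.054) or the second knockout colon library (0.053).

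**Figure D5:**
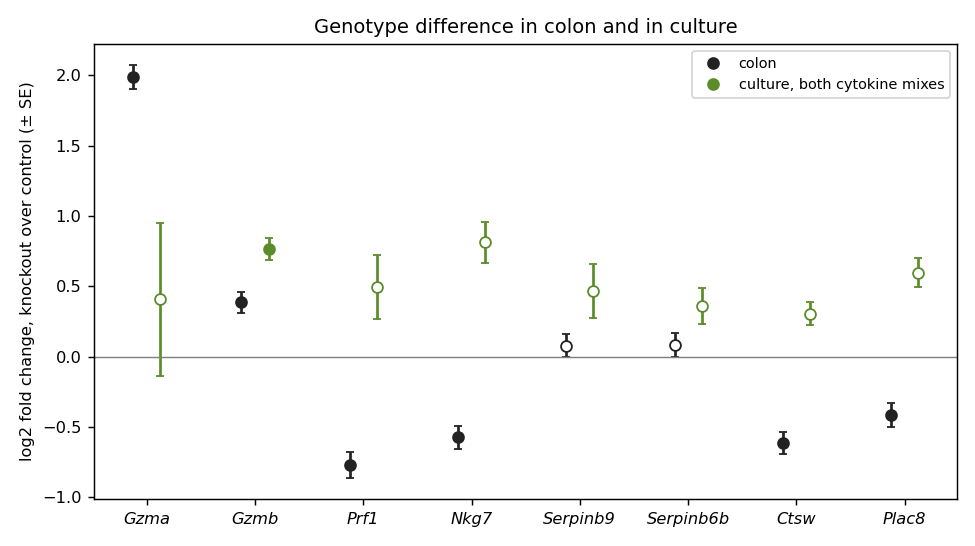
Log2 fold change of knockout over control in colon (black) and across both cytokine mixes in culture (green) for the 8 genes tested in both, with bars for the standard error; filled points passed an adjusted p of 0.05 in edgeR. Prf1, Nkg7, Ctsw and Plac8 lie below 0 in colon and above 0 in culture, and Gzma and Gzmb lie above 0 in both.

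On 1 scale for all libraries, the order of the Gzmb levels was knockout colon (584 and 565 CPM), control colon (448 and 434), knockout with IL-23 (218), control with IL-23 (130), knockout with TGF-β (17.3) and control with TGF-β (9.84). No neighbours in that order overlapped, although the cultured groups have 1 library each and no spread of their own. For Prf1 the order was control colon (63.8 and 61.2 CPM), knockout colon (35.3 and 37.6), knockout with IL-23 (8.29), control with IL-23 (5.82), knockout with TGF-β (0.685) and control with TGF-β (0.518). There the last 2 differ by less than counting error (12 and 9 counts). Among 9702 coding genes, those with log2 levels most like Gzmb across the 8 libraries were Lgals3, Irgm1 and Pglyrp2 (Pearson r of 0.997 each), and those most like Prf1 were H2-T22, Snx1 and Tor3a (0.999, 0.997 and 0.997). Each r is a description that rests on the gap between colon and cultured libraries, which differ in source and annotation.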

How the data were processed

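The deposited values are raw counts per gene, per the file headers. Per the submitters' processing notes, build mm10 was used together with featureCounts, Bowtie2, Trim Galore, DESeq2 and edgeR, whose versions and roles are not stated. Neither is the strand setting of the counting. Colon files (54446 entries) and culture files (55341 entries) were joined by symbols that were unique in both. Positions and exon lengths came from GENCODE M21 (mm10), promoters from RefSeq.

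In R 4.3.3, edgeR 4.0.16 quasi-likelihood tests (filterByExpr, TMM, Benjamini-Hochberg over all genes tested, threshold 0.05) compared genotypes in colon (2 residual degrees of freedom), genotype and cytokine mix in culture (1), and the 2 genotype effects in all libraries (3). The steps were run on simulated counts with the same spread for all fits and few changed genes. That run cannot check the spread of the cultures or the scaling under broad shifts. Ratios of 1 library to 1 have exact 95% intervals for counting error. A change of 2-fold was counted on log2 ratios with a prior count of 2. Alternatives were RLE factors, library totals, scaling to 12 T cell markers, no filter, DESeq2 1.42.0, each colon library left out, a replicate block, and a shared spread. Replicate libraries of a colon group differed by more than counting error (chi-square per gene of 7.57 and 5.51). The 10 genes and all lists were chosen with earlier results of these data known. Named genes were the 10, Rora, all other granzyme genes, and up to 4 genes per list with the smallest p in colon and between mixes. Of the latter, those past the threshold are given. Of marker lists, the most abundant genes and those at 0 are mentioned. Ncr1, Klra4, Klra8, Klrb1c, Trdc, Tcrg-C1, Mcpt1, Jchain, Siglech and Cd4 were added after their values were seen.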

Additional observations from a re-analysis of the deposited data

Results flagged for a closer look

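For 6 of the 10 genes, beside 17.3% of all genes tested, the knockout effect in colon differed from that in culture by a test of the difference itself (edgeR adjusted p under the threshold in a fit of all 8 libraries). The culture effect in that fit has no replicates of its own, since the 2 mixes serve as repeats. On the log2 scale the colon effect minus the culture effect was 1.61 for Gzma, -0.39 for Gzmb, -1.27 for Prf1, -1.38 for Nkg7, -0.93 for Ctsw and -1.02 for Plac8. The calls for Prf1, Nkg7, Ctsw and Plac8 were kept under all 10 alternatives, that for Gzma under 8 and that for Gzmb under 6. The number of the 10 genes called was 5 with library totals, with T cell marker scaling, without control replicate 1 and without control replicate 2, and 4 without knockout replicate 2.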

How the results depend on the processing

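In colon, 5173 genes were called, and 3658 by DESeq2. Of the 10 genes, 7 were called, and 7 to 9 under the alternatives. With 2 libraries a group, differences as small as those of Serpinb9 and Serpinb6b were not resolved, and genes with few counts in culture (Gzma, Gzmc, Gzmk, Prf1 with TGF-β) are limited by depth.

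For genotype in culture, 4 genes were called in edgeR, 9 with RLE factors, 9 with library totals, 75 with T cell marker scaling, 15 with a shared spread, 7 in DESeq2 and 0 without a filter. Of the 10 genes, 1 was called, 3 with T cell marker scaling, 3 with a shared spread and 0 without a filter. The cause was not tested. The comparison of colon and culture effects called 2572 genes, and 1676 to 2455 with 1 colon library left out. With 1 CPM in place of 5 CPM, 158 genes in place of 23 (TGF-β) and 184 in place of 29 (IL-23) reached 2-fold between genotypes.

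Values that changed sign were all of genes that were not called. In colon these were Serpinb9 (-0.017 without knockout replicate 2, and up to 0.13 with another library left out) and Serpinb6b (-8.7e-04 without control replicate 1, and up to 0.15). Between mixes Plac8 gave -0.14 with T cell marker scaling, -0.010 without a filter and -7.5e-05 in DESeq2. For colon minus culture, Gzmc gave 0.077 with library totals, 0.19 with T cell marker scaling and 0.021 without control replicate 1 (and down to -0.25 with another library left out), and Serpinb6b gave 0.031 with T cell marker scaling.

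With the replicate number as a block, 8 of the 10 genes were called in colon, with Gzmc added (0.33, edgeR adjusted p = 0.032), and 6230 genes in all. For colon minus culture 6 of the 10 and 3302 in all were called under that block. Deviations of same-numbered libraries correlated at 0.19, and nothing in the labels says that a number marks a shared animal or day. The cultured groups hold 1 library each with no replicate number, so no such block could be added within culture.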
